A study of Mus musculus with 8 samples.

Results

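The genes described here are those of the mouse mitochondrial genome, measured in bone that lacks the potassium channel subunit Girk3 and in wild-type bone. They were chosen by position alone, as the genes annotated on chromosome M in GENCODE M21, whose symbols start with mt-. The annotation holds 37 such genes. Of these, 35 have a row among the 49315 gene IDs of the count table, namely the 13 protein genes and the 22 tRNA genes. The 2 rRNA genes, mt-Rnr1 and mt-Rnr2, were not analysed here. The low-count filter passed 32 of the 35 genes, all 13 protein genes and 19 tRNA genes. Of the other tRNA genes, mt-Td and mt-Tk had 0 counts in all 8 libraries and mt-Ts1 had between 0 and 5.

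The libraries come from the femoral shafts of male C57BL6 mice aged 24 weeks, 4 homozygous for the Girk3 deletion (KO) and 4 wild type (WT), with each library taken as 1 mouse. The bone ends were cut off and the marrow was flushed out before RNA extraction, per the labels' protocols. Which exons were deleted is not given in the labels. The tissue is a mixture of cells, so fewer cells of a type and less RNA per cell cannot be told apart.

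Mammalian mitochondria carry a small circular genome that encodes core subunits of the respiratory chain, together with the rRNAs and tRNAs that translate them. Each strand is transcribed as a long precursor, and tRNAs that lie between the other genes mark the places where the precursor is cut. Most genes are read from the heavy strand, whereas mt-Nd6 and a minority of the tRNA genes are read from the light strand. All other respiratory chain subunits, and the proteins that transcribe, process and translate mitochondrial RNA, come from nuclear genes. Skeletal muscle and brown fat are rich in mitochondria, and osteoblasts use mitochondrial respiration as well as glycolysis.

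The targeted gene Kcnj9 (chromosome 1, 172320501 to 172329318, GRCm38) had 0, 8, 4 and 7 counts in KO replicates 1 to 4, and 7, 6, 6 and 23 counts in WT replicates 1 to 4. At counts this low it does not check the labels. Each library held between 30087749 and 36553713 counts. KO replicate 4 and WT replicate 4 stood apart from the rest of their groups in the mitochondrial counts and in the muscle markers, a list of 24 genes of which all were tested. These markers summed to 14.7%, 15.1%, 17.3% and 19.6% of counts in KO replicates 1 to 4, and to 15.4%, 15.7%, 16.5% and 10.6% in WT replicates 1 to 4. Summed marrow markers ranged from 0.495% to 1.54% of counts in KO and from 0.581% to 1.87% in WT. Summed markers of bone cells ranged from 0.848% to 1.95% in KO and from 0.906% to 2.19% in WT, and those of adipocytes from 0.0319% to 0.0824% in KO and from 0.0258% to 0.0347% in WT. No gene of these 4 lists was at 0 in every library. The part of these cell types in the results below was not tested, except where a value is given with the muscle markers in the model.

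All 37 genes are annotated with 1 exon. On the plus strand of the reference lie 12 protein genes and 14 tRNA genes with rows in the table, called heavy-strand genes here, and on the minus strand lie mt-Nd6 and 8 tRNA genes, called light-strand genes. Neighbouring genes touch or overlap, which matters for counting because the strand setting of the authors' counting is not given in the sources used here. The coding ends of mt-Nd5 and mt-Nd6 share 14 bases on opposite strands, at positions 13552 to 13565. The last 30 bases of both genes, from the GENCODE M21 transcripts, are shown with the shared stretch in capitals.
mt-Nd5, chrM:13536-13565, plus strand: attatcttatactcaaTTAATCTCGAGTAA
mt-Nd6, chrM:13552-13581, minus strand: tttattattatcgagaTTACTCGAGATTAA
The ATP synthase subunit genes mt-Atp8 and mt-Atp6 share 43 bases on the same strand, at positions 7927 to 7969. The end of the first and the start of the second are shown with these bases in capitals, since a read inside them belongs to both genes.
mt-Atp8, chrM:7910-7969, plus strand: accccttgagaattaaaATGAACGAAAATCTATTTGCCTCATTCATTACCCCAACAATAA
mt-Atp6, chrM:7927-7986, plus strand: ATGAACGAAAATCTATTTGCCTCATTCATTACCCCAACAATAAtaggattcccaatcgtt

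Several members also have copies in the nuclear genome that are annotated as pseudogenes and have rows of their own. With a threshold of 95% identity over at least 150 bases, 11 nuclear genes matched a member, and 9 members had at least 1 such copy. A run of 7 of them on chromosome 1, 24611535 to 24616197, minus strand, holds copies of mt-Nd4, mt-Nd4l, mt-Nd3, mt-Co3, mt-Atp6, mt-Co2 and mt-Co1 in their mitochondrial order. Gm28661 in this run matches the first 681 bases of mt-Co2 with 0 mismatches. Gm13341 on chromosome 2 matches mt-Co2 at 95.9% identity. The first 60 bases of mt-Co2 and both copies are shown to let the letters be compared, with the positions that differ in capitals.
mt-Co2, chrM:7013-7072, plus strand: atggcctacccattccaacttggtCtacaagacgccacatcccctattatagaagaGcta
Gm28661, chr1:24615506-24615565, minus strand: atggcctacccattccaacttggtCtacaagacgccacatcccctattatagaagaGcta
Gm13341, chr2:22587903-22587962, minus strand: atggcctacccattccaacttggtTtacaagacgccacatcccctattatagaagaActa
A read from such a stretch matches 2 places, and how the authors' counting treated such reads is not given in the sources used here. Of all 50-base windows of a gene, the share found unchanged in a nuclear transcript was 100% for mt-Co2, 99.9% for mt-Co3, 99.5% for mt-Atp6, 98.8% for mt-Nd4l and 98.0% for mt-Nd3. It was 62.2% for mt-Nd4, 51.1% for mt-Co1, 8.19% for mt-Nd2, 7.61% for mt-Nd5 and 0% for mt-Nd1, mt-Nd6, mt-Cytb and mt-Atp8. The levels and fold changes of the first 5 genes are therefore uncertain, and those of mt-Nd4 and mt-Co1 are less certain than those of genes at 0%. The search covered annotated transcripts only. A value of 0% thus does not exclude a copy in other nuclear sequence, which was not tested for mt-Atp8.

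The 13 protein genes formed a group of 7 with high counts and a group of 6 with low counts. Per kilobase of length, mean levels of mt-Nd1, mt-Nd2, mt-Co1, mt-Nd4, mt-Nd5, mt-Nd6 and mt-Cytb lay between 3207 and 19005 CPM per kb in KO and between 4991 and 23734 CPM per kb in WT (n = 4 each). CPM are counts scaled to library size with TMM factors. The other 6, mt-Co2, mt-Atp8, mt-Atp6, mt-Co3, mt-Nd3 and mt-Nd4l, lay between 11.7 and 168 CPM per kb in KO and between 19.3 and 161 CPM per kb in WT. All 6 are neighbours in the stretch from mt-Co2 to mt-Nd4l. mt-Td and mt-Tk, the tRNA genes listed at 0, also lie there or at its edge, and 3 counts, the limit that a count of 0 allows, correspond to between 0.0697 and 0.114 CPM per library. The tRNA genes mt-Tg and mt-Tr lie there too and had counts. Their mean levels were 59.2 and 40.9 CPM per kb in KO and 49.3 and 24.4 CPM per kb in WT. mt-Atp8 has no annotated copy, but 233 bases lie between the nuclear copies of mt-Atp6 and mt-Co2, and 233 bases also lie between the matching ends of the mitochondrial genes. The nuclear copy Gm28661 itself had 991, 864, 777 and 954 counts in KO replicates 1 to 4 and 819, 934, 741 and 728 counts in WT replicates 1 to 4, about as many as mt-Co2, which had 824, 631, 633 and 882 counts in KO and 723, 784, 711 and 685 counts in WT.

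**Figure D1:**
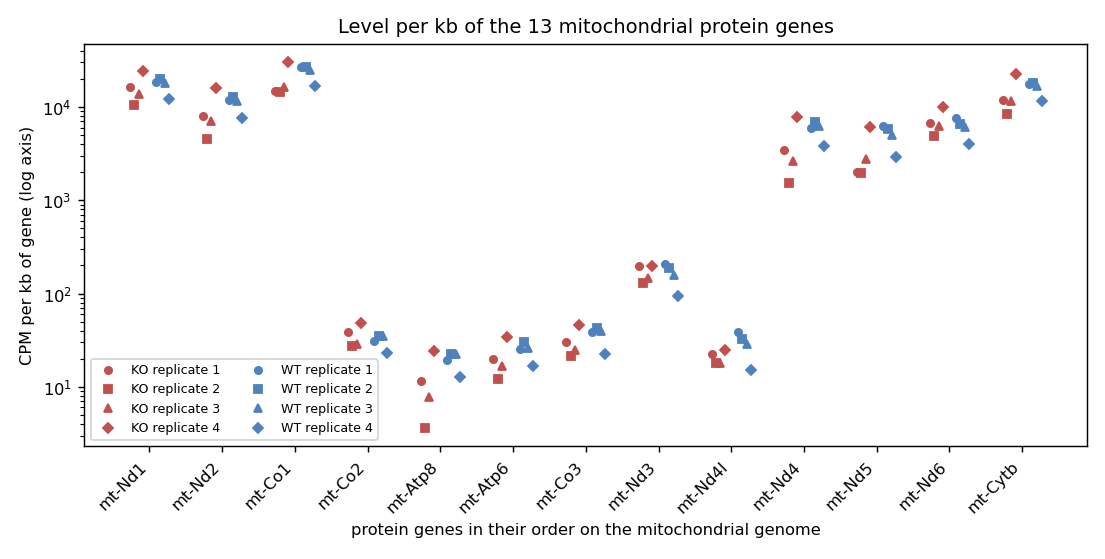
Level per kilobase of the 13 mitochondrial protein genes in each library, on a log axis in CPM per kb, with KO libraries left of WT libraries. The 7 abundant genes sit at means between 3207 and 19005 in KO and between 4991 and 23734 in WT, and the 6 genes from mt-Co2 to mt-Nd4l at means of at most 168 in KO and 161 in WT.

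The mitochondrial genes together took 7.36%, 5.84%, 7.09% and 11.6% of all counts in KO replicates 1 to 4, and 11.4%, 11.9%, 10.7% and 8.46% in WT replicates 1 to 4. KO replicates 1 to 3 were below every WT library, KO replicate 4 was among the highest, and WT replicate 4 was the lowest of its group. The mean was 7.98 ± 2.52% in KO and 10.6 ± 1.504% in WT (SD, n = 4 each), a difference of -2.63 percentage points, and the groups overlapped. Without both replicates 4 the difference was -4.55 percentage points, and without the counts of the muscle markers it was -2.82. Leaving out both replicates 4, the highest KO and the lowest WT library in this share, widens the difference by the choice itself. In KO replicate 4 the muscle markers were highest and the marrow markers, at 0.495% of counts, lowest of all libraries. In WT replicate 4 the muscle markers were lowest and the marrow markers, at 1.87%, highest. KO replicate 3 had more muscle marker counts (17.3%) than any WT library, but a lower mitochondrial share than all of them. The cause was not tested. The 7 abundant protein genes supplied between 99.1% and 99.5% of the mitochondrial counts in every library.

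**Figure D2:**
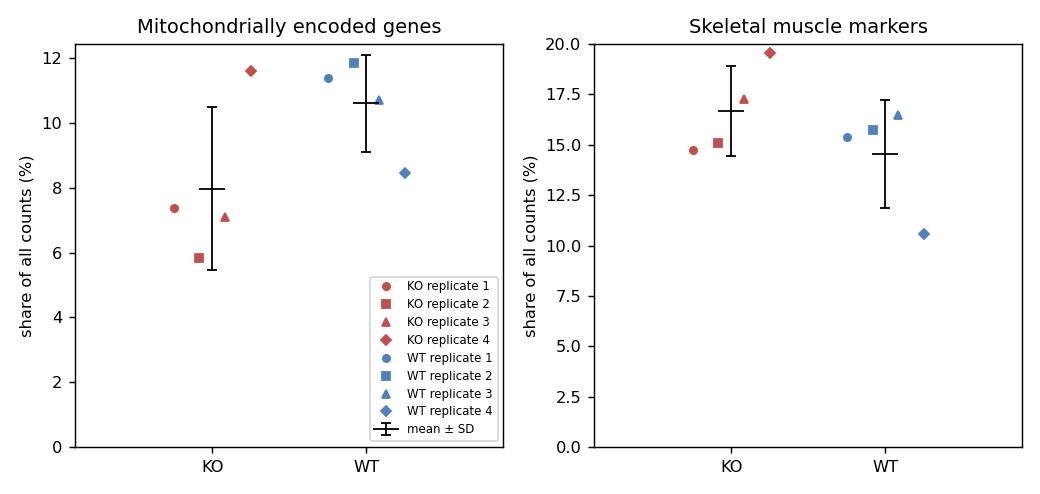
Mitochondrial genes and muscle markers as a percentage of all counts in each library, KO left of WT. KO replicate 4, at 11.6% mitochondrial counts, and WT replicate 4, at 8.46%, are the highest KO library and the lowest WT library, as they are for the muscle markers.

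No mitochondrial gene passed the test between KO and WT. With edgeR's quasi-likelihood test and Benjamini-Hochberg adjustment over all 17450 genes tested, 0 of the 32 members had an adjusted p under 0.05, against 0.0115% of all genes tested. At an unadjusted p under 0.05 there were 3 members, all higher in KO, against 9.59% of all genes higher and 8.59% lower. DESeq2 called 1 member (6.45% of all genes called) and limma-voom called 1 (4.02% of all genes called). Of the protein genes, 10 had a negative and 3 a positive log2 fold change, with a median of -0.24, whereas 12 tRNA genes had a positive and 7 a negative one, with a median of 0.20. The median over all genes tested was -0.01.

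Complex I, NADH dehydrogenase, passes electrons from NADH to ubiquinone, and 7 of its core subunits are encoded here. mt-Nd1 (2751 to 3707) had 15700.1, 10145, 13285 and 23114 CPM in KO replicates 1 to 4 and 17800.1, 19186, 17442 and 11633 CPM in WT replicates 1 to 4. The groups overlapped, with means of 15561 ± 5525 CPM in KO and 16516 ± 3341 CPM in WT (SD, n = 4 each), and the log2 fold change was -0.09 (SE 0.31, adjusted p = 0.917 by edgeR). mt-Nd2 (3914 to 4951) had 8332, 4653, 7421 and 16555 CPM in KO and 12278, 13307, 12166 and 7845 CPM in WT. Its log2 fold change came to -0.30 (SE 0.37, adjusted p = 0.725 by edgeR), and KO replicate 4 was again the highest library of all and KO replicate 2 the lowest. mt-Nd4 and mt-Nd5, near each other on the heavy strand, had the most negative values among the 7 abundant genes. mt-Nd4 (10167 to 11544) had 4818, 2101, 3654 and 10789 CPM in KO and 8256, 9419.5, 8562 and 5260.4 CPM in WT, a log2 fold change of -0.56 (SE 0.45, adjusted p = 0.554 by edgeR). mt-Nd5 (11742 to 13565) had 3622, 3574, 5026 and 11174 CPM in KO and 11397, 10556, 9112 and 5349.7 CPM in WT, a log2 fold change of -0.64 (SE 0.41, adjusted p = 0.446 by edgeR). In both genes KO replicates 1 to 3 were below every WT library. KO replicate 4 was above every WT library in mt-Nd4 and above all but WT replicate 1 in mt-Nd5. mt-Nd6 (13552 to 14070, minus strand), the only protein gene of the light strand, had 3508, 2566, 3282 and 5252 CPM in KO and 3917, 3427, 3199 and 2065 CPM in WT. Its groups overlapped as well, and its log2 fold change came to 0.21 (SE 0.28, adjusted p = 0.741 by edgeR).

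Cytochrome b, the mitochondrial subunit of complex III, is encoded by mt-Cytb (14145 to 15288). It had 13539.9, 9621, 13387 and 25681 CPM in KO replicates 1 to 4 and 20015, 20909, 19072 and 13298 CPM in WT replicates 1 to 4, a log2 fold change of -0.24 (SE 0.33, adjusted p = 0.758 by edgeR). mt-Co1 (5328 to 6872), the catalytic subunit of cytochrome c oxidase or complex IV, had the highest mean level of all members in both groups, also per kilobase. It had 22985, 22432, 25443 and 46592 CPM in KO and 41127, 40978, 38555 and 26016 CPM in WT, and its log2 fold change came to -0.32 (SE 0.32, adjusted p = 0.655 by edgeR). In both genes KO replicate 4 was the highest of the 8 libraries. About as many of the windows of mt-Co1 occur in nuclear transcripts as do not, so its values are less certain than those of mt-Cytb.

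**Figure D3:**
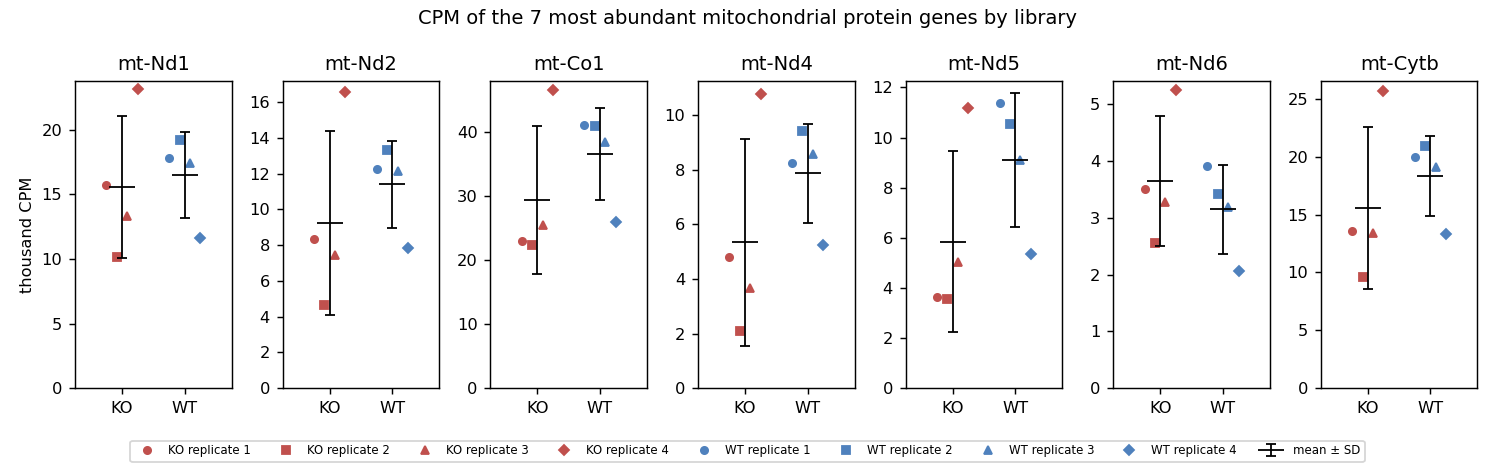
CPM of the 7 abundant mitochondrial protein genes in each library, KO left of WT, with group means. In each gene KO replicate 4 lies above the other KO libraries, as in mt-Co1, where it had 46592 CPM, and WT replicate 4 lies below the other WT libraries, as in mt-Nd5, where it had 5349.7 CPM.

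The 6 protein genes with low counts also overlapped between the groups, and 5 of them share nearly all of their sequence with nuclear transcripts. mt-Co2 and mt-Co3 encode the other core subunits of complex IV. mt-Co2 (7013 to 7696) had 26.5, 18.6, 19.9 and 33.4 CPM in KO replicates 1 to 4 and 21.2, 23.9, 24.0 and 15.9 CPM in WT replicates 1 to 4, a log2 fold change of 0.21 (SE 0.20, adjusted p = 0.642 by edgeR). mt-Co3 (8607 to 9390) had 23.9, 16.8, 19.2 and 36.3 CPM in KO and 30.6, 33.6, 31.3 and 17.7 CPM in WT, a log2 fold change of -0.23 (SE 0.26, adjusted p = 0.692 by edgeR). mt-Atp6 and mt-Atp8 encode subunits of the membrane part of ATP synthase. mt-Atp6 had 13.4, 8.35, 11.3 and 23.3 CPM in KO and 17.1, 20.4, 17.6 and 11.3 CPM in WT, a log2 fold change of -0.24 (SE 0.30, adjusted p = 0.725 by edgeR). mt-Atp8 (7766 to 7969) had 2.38, 0.735, 1.57 and 4.89 CPM in KO and 3.99, 4.58, 4.62 and 2.58 CPM in WT. KO replicates 1 to 3 were below every WT library in mt-Atp8, and its log2 fold change of -0.73 was the most negative of the 32 members (SE 0.47, adjusted p = 0.452 by edgeR). The values of mt-Atp8 are uncertain too, since a nuclear copy outside annotated transcripts was not tested.

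The remaining small complex I subunits were mt-Nd3 and mt-Nd4l. mt-Nd3 (9459 to 9806) had 68.1, 44.8, 51.2 and 69.3 CPM in KO replicates 1 to 4 and 71.3, 65.6, 54.6 and 32.5 CPM in WT replicates 1 to 4, a log2 fold change of 0.06 (SE 0.24, adjusted p = 0.928 by edgeR). mt-Nd4l (9877 to 10173) had 6.65, 5.38, 5.40 and 7.35 CPM in KO and 11.4, 9.71, 8.57 and 4.48 CPM in WT, a log2 fold change of -0.46 (SE 0.26, adjusted p = 0.385 by edgeR). All 4 KO libraries of mt-Nd4l lay between WT replicate 4 and the other WT libraries.

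Without KO replicate 4 and WT replicate 4, the 13 protein genes had a median log2 fold change of -0.74, against -0.24 with all libraries. In each of these genes KO replicate 4 was the highest KO library and WT replicate 4 the lowest WT library. Leaving both out therefore lowers the fold changes by the choice itself. In this fit 3 members passed the test, all lower in KO, which rests in part on that choice. They were mt-Co3 (-0.67, adjusted p = 0.0431 by edgeR), mt-Nd4 (-1.31, adjusted p = 0.0425 by edgeR) and mt-Nd5 (-1.35, adjusted p = 0.0294 by edgeR), in a fit where 1.01% of all genes were called lower. Nuclear transcripts hold 99.9% of the 50-base windows of mt-Co3 and 62.2% of those of mt-Nd4, so these calls are less certain. With the muscle score of each library in the model, 3 members were lower in KO, mt-Co1 (-0.72, adjusted p = 0.0444 by edgeR), mt-Nd4l (-0.74, adjusted p = 0.0464 by edgeR) and mt-Nd5 (-1.29, adjusted p = 0.0149 by edgeR), in a fit where 3.56% of all genes were called lower. limma-voom with quality weights called mt-Atp8 (-1.51, adjusted p = 0.0492). mt-Nd5 was called both in the edgeR fit without both replicates 4 and in that with the muscle score. These fits are not independent of each other. The muscle score, a mean log2 CPM, was highest in KO replicate 4 (12.6) and lowest in WT replicate 4 (11.2). Single KO libraries also moved the log2 fold changes by over 1.5 times, with the lowest value without KO replicate 4 and the highest without KO replicate 2. The range was -0.74 to -0.09 for mt-Nd2, -0.63 to -0.22 for mt-Co1, -1.16 to -0.30 for mt-Nd4, -1.16 to -0.47 for mt-Nd5 and -0.59 to -0.07 for mt-Cytb. It was -0.59 to -0.06 for mt-Atp6, -1.33 to -0.43 for mt-Atp8 and -0.50 to -0.10 for mt-Co3, and none of these 8 passed with any single library left out.

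The division of the mitochondrial counts between the strands was compared next. Light-strand genes supplied 5.31%, 4.995%, 4.93% and 4.07% of the mitochondrial counts in KO replicates 1 to 4, and 3.70%, 3.22%, 3.30% and 3.22% in WT replicates 1 to 4. All 4 KO libraries were above all 4 WT libraries, with means of 4.83 ± 0.534% in KO and 3.36 ± 0.230% in WT (SD, n = 4 each). The difference of 1.47 percentage points had an exact permutation p of 0.0286, two-sided, which is the smallest that 4 against 4 libraries can give, and 0.0571 after Benjamini-Hochberg adjustment over the 2 shares tested. It therefore did not pass after adjustment. Over the members without an annotated nuclear copy alone, a setting chosen after seeing the data, the difference was 2.47 percentage points. Over the protein genes alone, likewise, it was 1.42, which is the value of mt-Nd6, the only light-strand protein gene. The 7 light-strand tRNA genes tested had a median log2 fold change of -0.12, with 3 positive and 4 negative. The difference in light-strand share is thus mostly that of 1 gene. The 95% Wilson interval of each library's light-strand share reached at most 0.0311 percentage points to either side, and it covers counting error only. KO replicate 4 was the KO library nearest to WT, as it was in the share of all counts.

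Most of the light-strand counts came from mt-Nd6, a core subunit of complex I. It supplied 4.83%, 4.65%, 4.58% and 3.77% of the protein-gene counts in KO replicates 1 to 4, and 3.41%, 2.91%, 2.96% and 2.89% in WT replicates 1 to 4. mt-Nd5, whose end overlaps that of mt-Nd6, supplied 4.99%, 6.48%, 7.02% and 8.02% in KO and 9.92%, 8.95%, 8.42% and 7.48% in WT. The ratio of mt-Nd6 to mt-Nd5 counts was 0.969, 0.718, 0.653 and 0.470 in KO and 0.344, 0.325, 0.351 and 0.386 in WT, and every KO library was above every WT library. The ratio of mt-Nd6 to mt-Cytb counts, on the other side of mt-Nd6, was 0.259, 0.267, 0.245 and 0.205 in KO and 0.196, 0.164, 0.168 and 0.155 in WT, which did not overlap either. The CPM of mt-Nd6 itself overlapped between the groups, so these values describe its level relative to its neighbours. They use the same mt-Nd6 counts as the light-strand share and are not separate support for it. Reads from mt-Nd6 and from heavy-strand RNA opposite to it cannot be told apart without the strand setting.

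Relative to the protein-gene counts, 4 of the 32 members tested were above WT in every KO library and 0 were below, against 3.35% of all genes above and 0.12% below. The 4 members were mt-Nd1, mt-Co2, mt-Nd6 and mt-Tc. The percentages of all genes are no like measure for the members. The ratio of a nuclear gene also varies with the mitochondrial share of its library. mt-Nd1, the first protein gene after the rRNA genes, supplied 21.6%, 18.4%, 18.6% and 16.6% of the protein-gene counts in KO replicates 1 to 4, and 15.5%, 16.3%, 16.1% and 16.3% in WT replicates 1 to 4. mt-Co1 supplied 35.3 ± 3.89% in KO and 35.6 ± 0.668% in WT (SD, n = 4 each), and mt-Cytb 18.3 ± 0.588% in KO and 17.8 ± 0.516% in WT, and both overlapped. Since the shares of a library add up to a fixed total, they are not independent of each other.

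**Figure D4:**
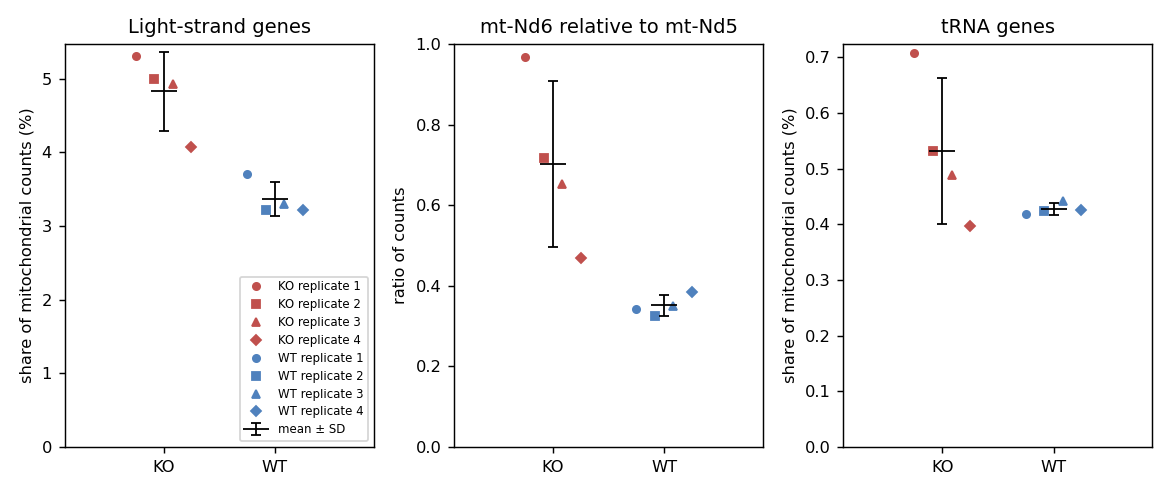
Light-strand share of mitochondrial counts (percent, left), ratio of mt-Nd6 to mt-Nd5 counts (middle) and tRNA share of mitochondrial counts (percent, right) in each library, KO left of WT, with the mean ± SD of each group. Light-strand genes, mostly mt-Nd6, make up 4.07% to 5.31% of mitochondrial counts in KO and 3.22% to 3.70% in WT, with no overlap between the groups.

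The tRNA genes, between 59 and 75 bases long, supplied 0.708%, 0.532%, 0.488% and 0.396% of the mitochondrial counts in KO replicates 1 to 4, and 0.418%, 0.424%, 0.442% and 0.426% in WT replicates 1 to 4. The means of 0.531 ± 0.131% in KO and 0.427 ± 0.0104% in WT (SD, n = 4 each) had an exact permutation p of 0.143, two-sided, and 0.143 after adjustment over the 2 shares. The difference was 0.104 percentage points, and 0.0448 without KO replicate 1. KO replicate 4 was below every WT library, and the other KO libraries were above them all. Whether counts over genes this short come from mature tRNA, from the uncut precursor or from neighbouring genes was not tested.

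The tRNA gene for cysteine, mt-Tc, had the smallest p of all members. It had 64.9, 41.2, 46.2 and 47.9 CPM in KO replicates 1 to 4 and 32.6, 33.6, 33.0 and 20.9 CPM in WT replicates 1 to 4. Every KO library was above every WT library, which held for 1 of the 32 members in CPM, with 0 below, against 7.33% of all genes above and 5.78% below. The means were 50.03 ± 10.3 CPM in KO and 30.01 ± 6.09 CPM in WT (SD, n = 4 each), a log2 fold change of 0.74 (SE 0.19, adjusted p = 0.0974 by edgeR). DESeq2 gave it the same fold change with an adjusted p of 0.0151. mt-Ti, mt-Tr and mt-Ts2, the tRNA genes for isoleucine, arginine and a serine, were next by p and are named here after their values were seen. mt-Ti had 20.9, 8.91, 6.09 and 7.96 CPM in KO and 5.40, 5.86, 6.28 and 3.28 CPM in WT, a log2 fold change of 1.08 (SE 0.37, adjusted p = 0.173 by edgeR), with KO replicate 1 far above the others, and 0.56 without that library. mt-Tr had a log2 fold change of 0.75 (SE 0.30, adjusted p = 0.231 by edgeR) and mt-Ts2 of 0.68 (SE 0.31, adjusted p = 0.289 by edgeR). mt-Tr lies between mt-Nd3 and mt-Nd4l, which have nuclear copies, and whether it has a copy outside annotated transcripts was not tested. The 4 sequences are given because these genes had the smallest p among the members, with the anticodon in capitals.
mt-Tc, chrM:5192-5257, minus strand: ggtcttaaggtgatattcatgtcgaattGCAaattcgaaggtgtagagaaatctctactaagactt
mt-Ti, chrM:3706-3774, plus strand: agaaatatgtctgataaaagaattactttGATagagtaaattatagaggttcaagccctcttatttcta
mt-Tr, chrM:9808-9875, plus strand: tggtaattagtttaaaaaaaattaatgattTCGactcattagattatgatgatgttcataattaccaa
mt-Ts2, chrM:11613-11671, plus strand: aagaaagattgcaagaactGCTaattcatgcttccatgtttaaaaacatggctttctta

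The other abundant tRNA genes did not separate the groups. mt-Tn, for asparagine, had 123, 59.02, 79.1 and 138 CPM in KO replicates 1 to 4 and 109.6, 115, 129.8 and 77.1 CPM in WT replicates 1 to 4. mt-Tp, for proline, had 91.9, 44.1, 68.7 and 126 CPM in KO and 101, 116, 119 and 84.3 CPM in WT. mt-Te, for glutamate, had 62.2, 28.8, 41.7 and 87.7 CPM in KO and 69.99, 89.1, 74.4 and 47.9 CPM in WT. In these 3 light-strand genes KO replicates 2 and 3 were lower than KO replicates 1 and 4. mt-Tl1 and mt-Tl2, both for leucine, lie on the heavy strand. mt-Tl1 had 54.2, 33.9, 36.0 and 57.2 CPM in KO and 52.9, 51.4, 44.4 and 28.0 CPM in WT, and mt-Tl2 had 26.7, 19.1, 18.5 and 22.2 CPM in KO and 27.0, 22.3, 15.9 and 9.73 CPM in WT. The log2 fold changes of these 5 genes were -0.12, -0.35, -0.35, 0.04 and 0.21 in that order, none of which passed. The other 16 tRNA genes had between 0 and 777 counts in a library, and of the 13 tested among them 9 had a positive log2 fold change, in a range of -0.40 to 1.08. mt-Tc lies on the light strand, yet light-strand genes supplied 74.4 ± 3.83% of the tRNA counts in KO and 78.6 ± 3.61% in WT (SD, n = 4 each), which overlapped.

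**Figure D5:**
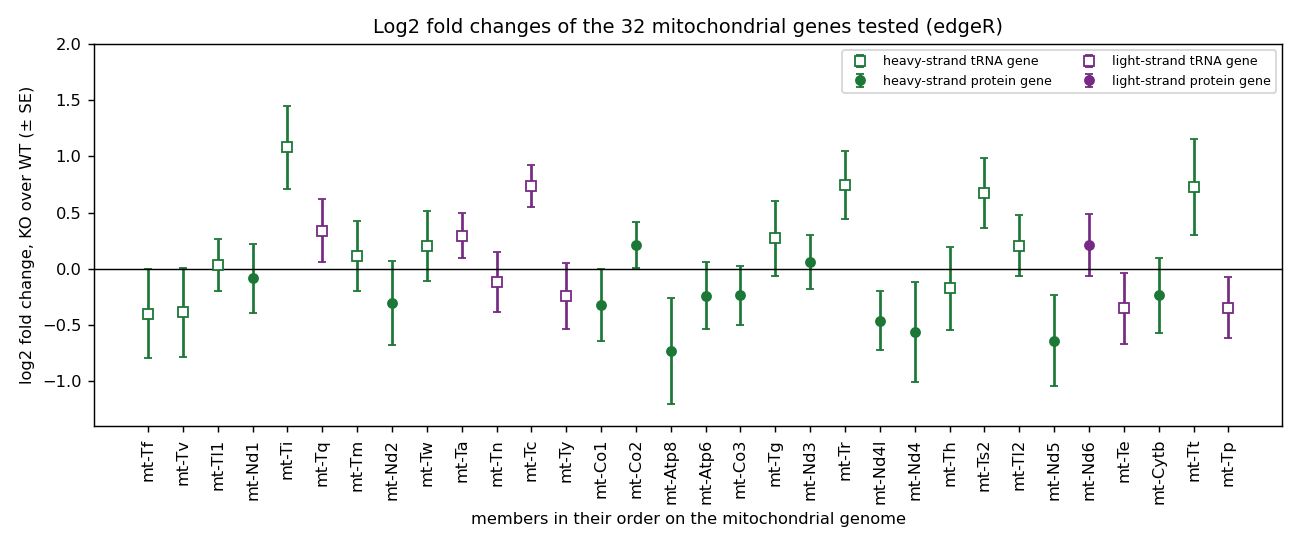
Log2 fold change of KO over WT with its SE for the 32 mitochondrial genes tested by edgeR, in genome order, with filled circles for protein genes, open squares for tRNA genes and colour for the strand. mt-Ti, at 1.08, is the highest and mt-Atp8, at -0.73, the lowest.

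Nuclear genes for the subunits that join the mitochondrial ones had mostly positive fold changes. Of the 78 genes tested for subunits of complexes I to V, 77 had a positive log2 fold change with a median of 0.64, and 65 had an unadjusted p under 0.05 and were higher in KO, against 9.59% of all genes, but 0 passed after adjustment by edgeR. Of the other settings, 5 called some of the 78, all higher in KO. DESeq2 called 61 (6.45% of all genes called) and limma-voom 48 (4.02%). edgeR called 55 with the muscle covariate (8.75% of all genes called), 26 without both replicates 4 (2.62%) and 12 without a low-count filter (0.228%). The remaining settings called 0. Among them were each fit with 1 library left out, other scalings, the replicate block and the length and GC trend removed, where the median was 0.48. Cell type markers went in both directions. The adipocyte markers had a median log2 fold change of 0.63, positive in 6 of 6 tested, and the muscle markers 0.43, positive in 18 of 24. The marrow markers had a median of 0.09, positive in 12 of 18, and the bone markers -0.25, negative in 10 of 12. Without both replicates 4 these medians were 0.65, 0.14, 0.73 and 0.02 in that order, against 0.58 for the 78 genes. Tnni2 (0.80) and Pvalb (0.77) of muscle and Fabp4 (0.58) of adipocytes were higher in every KO library than in every WT library. Runx2 (-0.43) of bone was lower in every KO library. These are log2 fold changes of genes picked from their lists by smallest p, none of which passed by edgeR. Over all genes tested, 7.33% were higher in every KO library and 5.78% lower. The median was 0.63 over 36 genes of complex I, 0.60 over 9 genes of complex III, 0.65 over 14 genes of complex IV and 0.71 over 15 genes of complex V, against mitochondrially encoded values of -0.64 to 0.21, -0.24, -0.32 to 0.21 and -0.73 to -0.24. Complex II, which has no mitochondrially encoded subunit, had a median of 0.54 over 4 genes. The genes with the smallest p in each list did not pass by edgeR with all libraries, and included Ndufc2 (0.82) of complex I, Uqcrh (0.79) of complex III, Cox6b1 (0.91) of complex IV and Atp5mpl (1.02) of complex V, as log2 fold changes. These 4 passed in each of the 5 settings that called some of the 78. For Ndufc2 the adjusted p was 3.37e-06 by DESeq2 and 0.0164 by limma-voom. It was 0.0102 by edgeR with the muscle covariate, 0.035 by edgeR without both replicates 4 and 0.0331 by edgeR without a low-count filter.

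The nuclear genes that express the mitochondrial genome had values closer to 0. Of 104 such genes tested, 80 had a positive log2 fold change, with a median of 0.14, 21 had an unadjusted p under 0.05 and were higher in KO (20.2%, against 9.59% of all genes), 1 was lower (against 8.59% of all genes), and 0 passed after adjustment by edgeR. DESeq2 called 7 higher and 1 lower (6.45% of all genes called). limma-voom called 4 higher (4.02% of all genes called) and edgeR with the muscle covariate 3 higher (8.75% of all genes called). The lists comprised transcription and maintenance of mitochondrial DNA (median 0.09 over 19 genes), RNA processing (0.20 over 28), RNA modification (0.11 over 15), mitochondrial tRNA synthetases (0.11 over 22), translation factors (0.18 over 12) and regulators of mitochondrial biogenesis (0.08 over 8). Tfam, which packages and transcribes mitochondrial DNA, had 51.8 ± 1.92 CPM in KO and 38.7 ± 5.91 CPM in WT (SD, n = 4 each), a log2 fold change of 0.42 that did not pass by edgeR, DESeq2 or limma-voom. Lars2, the mitochondrial leucyl-tRNA synthetase, had a log2 fold change of 0.71 and Pprc1, a coactivator in mitochondrial biogenesis, one of -0.45, and neither passed by edgeR. DESeq2 gave Lars2 an adjusted p of 0.0118 and Pprc1 one of 0.0299, and limma-voom gave Lars2 one of 0.0378.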

How the data were processed

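RNA was measured in 8 libraries, and the authors deposited whole-number read counts per gene. The submitters' processing notes name bcl2fastq 2.17, STAR 2.5.2b, featureCounts, Subread 1.5.2 and the build mm10. Their settings, including strand and the treatment of reads with several matches, were not stated. Titles gave the groups and the replicate numbers. GENCODE M21 (GRCm38) matched 48970 of 49315 gene IDs. The groups were tested with edgeR 4.0.16 in R 4.3.3 (quasi-likelihood, TMM, robust, filterByExpr). Benjamini-Hochberg adjustment ran over 17450 genes, at a threshold of 0.05. Both shares were compared by exact permutation, with 70 arrangements. blastn 2.17.0 found nuclear copies. Alternatives used DESeq2 1.42.0, limma-voom (limma 3.58.1), other scalings and filters, a muscle covariate and omitted libraries. Scripts were tested on simulated data. Depth was 30087749 to 36553713 counts, and intervals cover counting error only. Members and lists were chosen with earlier results of these data known. Named were the protein genes, the 6 tRNA genes with the highest mean count, and from each other list up to 2 genes by smallest p.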

Additional observations from a re-analysis of the deposited data

Results flagged for a closer look

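Among 72 sets of 4 libraries examined for a library far from the others, 5 had one past Dixon's critical value at 95%, and chance gives about 1 in 20. mt-Co1 in KO had 46592 CPM in replicate 4, against 22432 to 25443 CPM in the other KO libraries. mt-Co1 in WT had 26016 CPM in replicate 4, against 38555 to 41127 CPM in the other WT libraries. mt-Tc in WT had 20.9 CPM in replicate 4, against 32.6 to 33.6 CPM in the others. mt-Tq in KO had 5.59 CPM in replicate 1, against 3.30 to 3.41 CPM in the others. The light-strand share of mitochondrial counts in WT was 3.70% in replicate 1, against 3.22% to 3.30% in the others. The cause was not tested for any of them.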

How the results depend on the processing

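The count of genes called over the whole table was 2, and it was 994 with DESeq2, 701 with limma-voom, 1527 with the muscle covariate, 458 without both replicates 4, 71 without a low-count filter and 1 with the replicate block, and between 2 and 4 with 1 library left out. The count of members called, 0, became 1 with DESeq2, 1 with limma-voom, 3 with the muscle covariate and 3 without both replicates 4, and stayed at 0 with each single library left out. The difference in light-strand share was 1.67 percentage points without both replicates 4 (exact permutation p = 0.1), 1.47 with the replicate block (exact permutation p = 0.125) and between 1.30 and 1.72 with 1 library left out (exact permutation p = 0.0571); these are the smallest p such designs allow. Same-numbered libraries of the 2 groups correlated at -0.187, -0.166, -0.247 and -0.568 in their deviations from the group means. These values cannot show whether the numbers pair the mice, and the main test did not pair them. Members whose log2 fold change changed sign, none of them called, were mt-Co2 (-0.069 with limma-voom, -0.026 with the muscle covariate), mt-Nd3 (-0.21 and -0.17 in these settings, -0.028 with library totals, -0.036 with the length and GC trend removed), mt-Nd6 (-0.045 and -0.12), mt-Tl1 (-0.28 and -0.19, -0.059 with library totals, -0.083 with the trend removed), mt-Tl2 (-0.028 with limma-voom) and mt-Tm (-0.017 with limma-voom, -0.21 with the muscle covariate). With 1 library or both replicates 4 left out, mt-Nd1 ranged from -0.48 to 0.066, mt-Co2 from -0.092 to 0.32, mt-Nd3 from -0.22 to 0.20, mt-Nd6 from -0.17 to 0.34, mt-Tn from -0.44 to 0.062, mt-Tl1 from -0.26 to 0.15, mt-Tl2 from -0.025 to 0.43, mt-Tm from -0.21 to 0.43, mt-Th from -0.58 to 0.044, mt-Ty from -0.62 to 0.027 and, of the markers, Cfd from -0.18 to 1.63. Library totals moved the median of all genes to -0.11. The cause was not tested. Comparisons of the rRNA share and of the 2 rRNA genes were not run, since these genes were not analysed here.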
